A study of Mus musculus with 6 samples.

Results

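The adipocyte lineage genes were 10 genes chosen by name as factors that drive fat cell formation or as genes that fat cells use. The rule itself uses no measured value, but the genes were chosen with earlier results of these data known. They were the transcription factors Pparg, Cebpa, Cebpb, Cebpd and Zfp423, the lipid handling genes Lpl, Cd36, Fabp4 and Plin1, and the secreted hormone gene Adipoq. All 10 were found among the 55487 gene identifiers of the count table, and all 10 were among the 19015 genes with enough counts to test. They were read in bulk RNA-sequencing of 6 cultures labelled as endothelial cells (ECs) from the skin of C57BL/6 mice. The medium of 3 cultures held 5 mmol/L glucose (normal glucose) and that of the other 3 held 20 mmol/L (high glucose), each for 48 hours, to mimic the hyperglycemia of diabetes. Both groups had the same genotype, with no allele or other agent named in the labels. The cells came from the skin of 4 to 6 mice aged 2 to 3 months, were enriched with beads against CD31 and were grown as primary cultures. The labels do not say whether the 3 replicates of a group were separate isolations, so p-values measure only the spread between these samples, which may be technical.

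Fat cells arise from mesenchymal progenitors through a relay of transcription factors. Cebpb and Cebpd act early in cultured preadipocytes, and they induce Pparg and Cebpa, which then sustain each other and switch on the genes of the mature fat cell. Zfp423 marks committed progenitors and favors Pparg expression. Among the mature genes, lipoprotein lipase (Lpl) frees fatty acids from circulating triglyceride, Cd36 carries fatty acids into the cell, Fabp4 binds them in the cytosol, perilipin 1 (Plin1) coats the lipid droplet, and Adipoq encodes the hormone adiponectin. Several of these genes are not limited to fat cells, since Cd36 and Fabp4 are also expressed by capillary ECs, and Lpl and Cd36 also by macrophages.

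The endothelial label was checked against its markers, because it bears on which cells the adipocyte lineage transcripts came from. The CD31 gene Pecam1 lay between 0.0634 and 0.152 CPM (read counts scaled to a common library size) over the 6 cultures, and 11 of 20 endothelial markers were under 1 CPM in every culture. Fibroblast markers were abundant, with 18 genes summing to 50124 to 53996 CPM in normal and 85259 to 89725 CPM in high glucose. In the same order, endothelial markers summed to 228 to 254 and 205 to 211 CPM, macrophage markers to 22.5 to 24.0 and 31.5 to 32.6 CPM with 15 of 20 under 1 CPM and Adgre1 at 0 in 5 cultures, and keratinocyte markers to 5.88 to 6.51 and 5.78 to 6.30 CPM. Of the macrophage sum, Cd14 alone held 8.95 to 10.1 CPM in normal and 21.1 to 21.2 CPM in high glucose, while 4 of the 10 tested macrophage markers fell. The 20 adipose progenitor markers summed to 5468 to 5660 CPM in normal and 6274 to 6483 CPM in high glucose, with Pdgfra alone at 1954 ± 105 and 2683 ± 41.3 CPM (SD, n = 3 each). Total counts per library were 120192466 to 146881356, with 7.86% to 8.18% of them in the 10 most abundant genes in normal glucose and 11.4% to 11.6% in high glucose. At this depth 3 counts corresponded to at most 0.0258 CPM and each adipocyte lineage gene had at least 900 counts in every library. The part that a shift in cell composition played in the results was not tested, and in bulk RNA fewer cells of a type and less RNA per cell cannot be told apart.

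Promoter sequences are shown first for 3 genes that rose in high glucose, Cebpa, Adipoq and Plin1, and for the most downstream of the 3 starts listed for Pparg, which did not pass the test. They are the bases before RefSeq starts on GRCm38.p6, written 5′ to 3′ on the strand of the gene, without bases that GENCODE places in an exon. Capitals mark matches on either strand to a C/EBP element (TTGCNNAA), a CCAAT box (CCAAT) or a TATA box (TATAAA). The windows lie at chr7:35119043-35119292 (plus strand) for Cebpa, chr16:23146286-23146535 (plus) for Adipoq, chr7:79732904-79733026 (minus) for Plin1 and chr6:115421816-115422065 (plus) for Pparg.
Cebpa: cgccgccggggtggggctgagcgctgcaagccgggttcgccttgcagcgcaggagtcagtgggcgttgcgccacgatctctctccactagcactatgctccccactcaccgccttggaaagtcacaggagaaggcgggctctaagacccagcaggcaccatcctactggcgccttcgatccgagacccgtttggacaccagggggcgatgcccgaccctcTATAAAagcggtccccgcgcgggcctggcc
Adipoq: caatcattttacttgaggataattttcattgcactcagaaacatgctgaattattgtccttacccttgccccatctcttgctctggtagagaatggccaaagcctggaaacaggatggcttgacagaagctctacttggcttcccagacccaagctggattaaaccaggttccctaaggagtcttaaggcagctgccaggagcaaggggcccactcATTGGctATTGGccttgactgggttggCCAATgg
Plin1: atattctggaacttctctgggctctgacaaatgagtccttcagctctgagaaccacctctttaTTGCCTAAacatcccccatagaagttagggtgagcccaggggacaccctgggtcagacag
Pparg: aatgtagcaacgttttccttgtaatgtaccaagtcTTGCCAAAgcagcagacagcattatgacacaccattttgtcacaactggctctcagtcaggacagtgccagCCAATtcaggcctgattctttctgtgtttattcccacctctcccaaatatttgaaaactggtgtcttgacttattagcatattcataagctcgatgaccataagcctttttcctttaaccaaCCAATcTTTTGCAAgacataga

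RefSeq windows of 250 bases were present for 10 starts of 7 of the genes, with none for Cebpd, Fabp4 and Lpl. A C/EBP element was found before 3 of the 10 starts, against 9.56% of 32851 windows of this length for all genes. These were the Plin1 start, with matches 187 bases upstream (shown) and 58 bases upstream (in the part left out), the Pparg start printed above, with matches 215 and 16 bases upstream, and 1 of 2 Zfp423 starts, with a match 131 bases upstream. The windows of Cebpa, Cebpb, Adipoq and Cd36 held none. The spaced repeat AGGTCANAGGTCA, which binds PPARγ with its RXR partner, was found in none of the 10 windows and in 0.0335% of all windows, while its single unit AGGTCA was found in 4 of the 10 and in 14.0% of all. Base composition varied widely among the windows, from 82.4% G and C at the most upstream Pparg start and 81.6% at Cebpb to 48.8% with no CpG at Adipoq and 40.8% at the Pparg start shown. A match of letters is a description of the window and not evidence that a factor was bound in these cultures.

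In high glucose, 6 of the 10 adipocyte lineage genes were higher, 1 was lower and 3 did not pass the test. The increases were modest, from 1.26-fold (Cebpb) to 1.59-fold (Adipoq), and included both early and late genes of the program. Cd36 moved the opposite way, at 0.803 of its normal glucose level, and Pparg, Cebpd and Fabp4 had overlapping groups. Across all genes tested, 16.9% were called higher and 14.5% lower by the same test, the quasi-likelihood test of edgeR with p adjusted by Benjamini and Hochberg (threshold 0.05). The median log2 fold change was 0.35 over the 10 genes and 0.0062 over all tested genes. The groups did not overlap for 7 of the 10 genes, high glucose lying above in 6 and below in 1, where 25.1% of all tested genes lay fully above and 21.3% fully below. The split over all genes, 3212 higher and 2757 lower, depended on scaling, with 2622 and 3407 under upper quartile scaling and 1819 and 4884 under plain library size, which shifted the median of all genes to −0.11. Relative to that shift the directions of the called adipocyte lineage genes stood, and every one except Cebpb passed under each scaling. Over the 17 alternative analyses the log2 fold change of Adipoq ranged from 0.56 to 0.79, that of Lpl from 0.50 to 0.63, that of Cebpa from 0.28 to 0.41, that of Plin1 from 0.26 to 0.39, that of Zfp423 from 0.26 to 0.40 and that of Cd36 from −0.43 to −0.26, and these 6 genes passed in each of them. Pparg (−0.07 to 0.07) and Cebpd (−0.13 to 0.02) passed in none and did not keep 1 sign, Pparg being below 0 under library size scaling or without high glucose replicate 3, and Cebpd above 0 when normal or high glucose replicate 3 was left out.

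**Figure D1:**
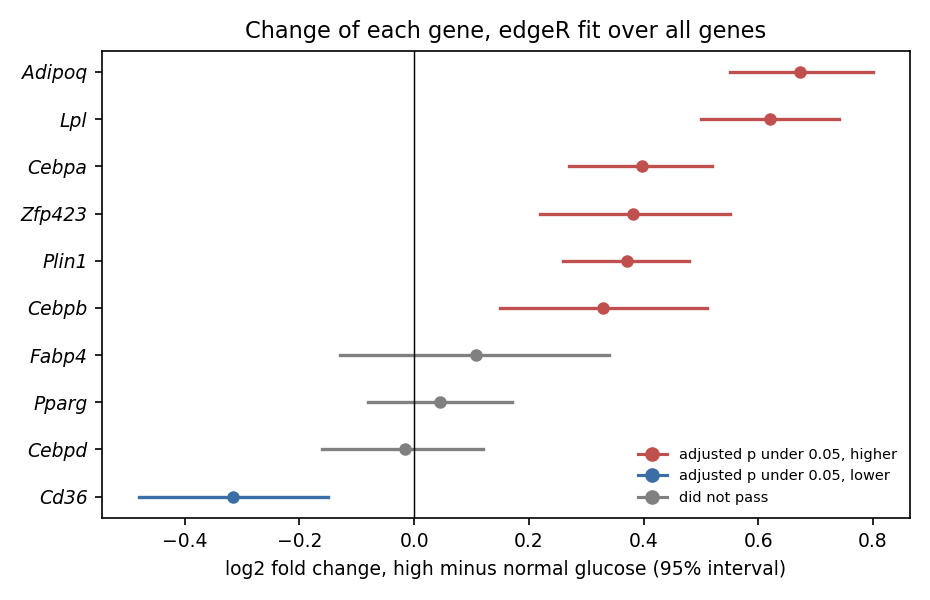
Log2 fold change of each adipocyte lineage gene in high against normal glucose (x axis), with its 95% interval from the edgeR fit over 19015 genes (3 cultures per group). Adipoq and Lpl, at 0.67 and 0.62, lie furthest to the right, Cd36 is the only gene wholly to the left of 0 at −0.32, and the intervals of Pparg, Cebpd and Fabp4 include 0.

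Among the early factors, Cebpb (chr2:167688915-167690418, plus strand, a single-exon gene) had 314, 253 and 268 CPM in normal against 359, 367 and 323 CPM in high glucose. Every high glucose culture lay above every normal glucose culture, by a small margin between the highest of the one (314) and the lowest of the other (323). The log2 fold change was 0.33 (SE 0.083, 95% interval 0.15 to 0.51), with an adjusted p of 0.0125 from edgeR. This was the least firm of the 6 increases, since it no longer passed without normal glucose replicate 3 (0.29, adjusted p = 0.0562 in edgeR), high glucose replicate 1 (0.29, 0.0643) or high glucose replicate 2 (0.28, 0.0669), or under library size scaling (0.21, 0.0678). Of the Cebpb exon bases, 20.7% overlap Tmem189 on the opposite strand, and whether counting used strand is not stated. Tmem189 itself stood at 47.0 ± 2.31 and 50.2 ± 0.0551 CPM and did not pass (adjusted p = 0.202, edgeR).

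Cebpd (chr16:15887286-15891031, plus strand) is the companion of Cebpb in the early phase. It was detected at 270, 249 and 278 CPM in normal against 271, 273 and 244 CPM in high glucose. The groups overlapped, and the log2 fold change was −0.02 (SE 0.063, 95% interval −0.16 to 0.12, adjusted p = 0.874 in edgeR). Its exons share 15.0% of their bases with Spidr on the other strand, which also did not pass (35.2 ± 1.70 and 36.9 ± 1.06 CPM). Within each culture the count ratio of Cebpb to Cebpd was 1.16, 1.02 and 0.964 in normal against 1.33, 1.34 and 1.32 in high glucose. These groups did not overlap.

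Zfp423 (chr8:87661810-87959595, minus strand), the zinc finger factor of committed progenitors, was the least abundant of the genes. It was present at 7.19, 7.92 and 8.02 CPM in normal against 10.2, 9.98 and 9.93 CPM in high glucose. The high glucose cultures were tightly grouped and all above the controls, and the log2 fold change was 0.38 (SE 0.074, 95% interval 0.22 to 0.55; adjusted p = 0.00299, edgeR). Its close relative Zfp521, which opposes Zfp423 and restrains fat cell formation, was also higher, from 53.3 ± 3.23 to 69.4 ± 0.746 CPM (log2 fold change 0.38, SE 0.057).

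Pparg (chr6:115360951-115490399, plus strand), the nuclear receptor at the center of the program, was measured at 33.9, 33.3 and 32.6 CPM in normal glucose. In high glucose it was measured at 32.3, 35.0 and 35.7 CPM, so that the lowest of the 6 values was a high glucose culture. The log2 fold change was 0.04 (SE 0.056, adjusted p = 0.587 in edgeR), and the 95% interval of −0.08 to 0.17 gives the range of differences these cultures allow. GENCODE lists 7 Pparg transcripts with more than 1 start, and counts per gene do not separate the isoform that begins at the fat cell promoter from the broadly expressed one. Rxra, the partner with which PPARγ binds DNA, was higher in high glucose (190 ± 17.4 to 237 ± 7.59 CPM, log2 fold change 0.31, SE 0.069).

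Cebpa (chr7:35119293-35121928, plus strand, a single exon) encodes the factor that maintains the differentiated state. It was read at 150, 140 and 153 CPM in normal against 198, 199 and 186 CPM in high glucose. The gap between the groups was wider than either group's range, and the log2 fold change was 0.40 (SE 0.056, 95% interval 0.27 to 0.52; adjusted p = 3.89e-04, edgeR). An antisense model, Gm45091, covers 1.93% of its exon bases and was nearly silent, at 0.474 ± 0.0843 and 0.665 ± 0.112 CPM. Per Pparg count there were 4.43, 4.20 and 4.68 Cebpa counts in normal against 6.14, 5.70 and 5.20 in high glucose. Per Cebpb count there was no such separation (0.479, 0.553 and 0.571 against 0.552, 0.544 and 0.576).

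**Figure D2:**
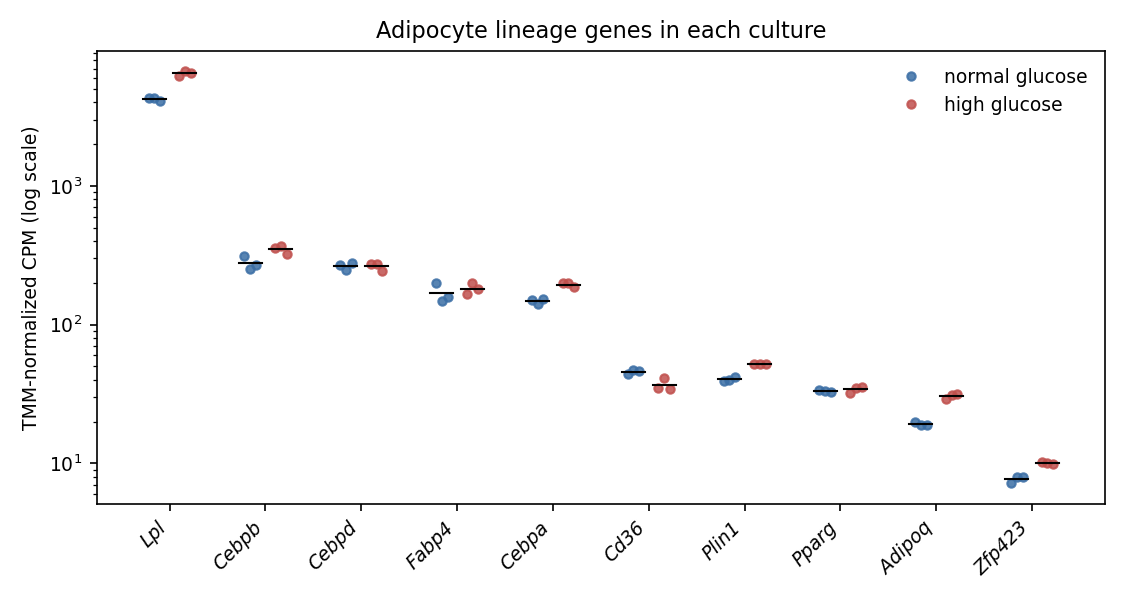
TMM-normalized CPM of the 10 genes on a log axis, 1 point per culture (3 normal glucose, 3 high glucose) with the group mean as a bar, ordered by the mean in normal glucose. Lpl lies above 4000 CPM in every culture and Zfp423 near 10 CPM, and the groups are apart for Lpl, Cebpb, Cebpa, Cd36, Plin1, Adipoq and Zfp423.

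Lpl (chr8:68880491-68907448, plus strand), the secreted lipase, was by far the most abundant of the genes. Normal glucose cultures had 4306, 4270 and 4063 CPM and high glucose cultures 6222, 6679 and 6528 CPM. It took 0.449%, 0.448% and 0.419% of all counts in normal against 0.601%, 0.637% and 0.629% in high glucose, which placed it 12, 9 and 14 in the ranking of all genes by count in the first group and 9, 8 and 9 in the second. The groups were far apart, with a log2 fold change of 0.62 (SE 0.053, 95% interval 0.50 to 0.74; adjusted p = 1.2e-05, edgeR). Because Lpl supplied 80.0% to 82.0% of the counts of the 10 genes in normal glucose and 84.4% to 85.6% in high glucose, the sum over the 10 genes follows this gene.

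Other genes that act on lipoprotein lipase were read from a list of 25 genes of fatty acid uptake and binding, of which 10 rose, 6 fell and 5 did not pass among 21 tested (median log2 fold change 0.14). Among all tested genes 16.9% were called higher and 14.5% lower. The list's number of higher genes was not firm, being 6 without high glucose replicate 1, 5 without high glucose replicate 2 or 3 and 5 under library size scaling. Angptl4, which inactivates the enzyme, went from 183, 199 and 203 CPM to 390, 386 and 411 CPM (log2 fold change 1.02, SE 0.058). Pcsk5 and Pcsk6, proprotein convertases that can cleave the enzyme, also rose, Pcsk5 from 261 ± 13.1 to 753 ± 7.60 CPM and Pcsk6 from 0.493 ± 0.0651 to 2.05 ± 0.0340 CPM. Furin, also a convertase, was called higher in edgeR and in 11 of the 17 alternative analyses, with log2 fold changes of 0.07 to 0.25 over them. The maturation factors Lmf1 and Sel1l moved little (log2 fold changes 0.16 and 0.17). Both were called higher in edgeR and count among the genes that rose, but passed in only 3 and 2 of the 17 alternative analyses. Gpihbp1, which anchors the enzyme on capillary ECs, had no count in any culture, where 3 counts would be 0.0211 to 0.0258 CPM. Vldlr, a receptor for triglyceride-rich lipoproteins, fell from 30.3 ± 1.94 to 15.6 ± 0.549 CPM. The fatty acid transport protein genes Slc27a6 and Slc27a3 differed in direction, from 2.76 ± 0.136 to 6.71 ± 0.0420 CPM for the former and from 62.9 ± 2.85 to 31.3 ± 1.61 CPM for the latter.

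Cd36 (chr5:17781690-17888801, minus strand), the fatty acid translocase, was the gene that fell. Normal glucose cultures had 43.8, 46.7 and 46.0 CPM, and high glucose cultures had 34.7, 40.9 and 34.1 CPM. High glucose replicate 2 lay closer to the controls than the other two did, but below all of them. The log2 fold change was −0.32 (SE 0.073, 95% interval −0.48 to −0.15; adjusted p = 0.00785, edgeR), and it was called lower in all 17 alternative analyses. With Lpl higher and Cd36 lower, the count ratio of Lpl to Cd36 went from 92.7 ± 5.07 to 178 ± 14.1. Markers of other cells that express Cd36 were read beside it. Of 13 tested endothelial markers 3 rose and 4 fell, and of 10 tested macrophage markers 1 rose and 4 fell. By the same test 16.9% of all tested genes were higher and 14.5% lower. Cdh5, the endothelial cadherin, fell from 1.80 ± 0.0797 to 0.876 ± 0.0806 CPM. Kdr stood at 4.96 ± 0.457 and 5.50 ± 0.228 CPM without passing. Plvap was among the endothelial markers that rose, with log2 fold changes of 0.33 to 0.48 over the 17 alternative analyses. Flt1 (−0.70 to −0.52) and Ecscr (−0.64 to −0.41) were among those that fell. The macrophage marker Csf1r fell from 5.62 ± 0.646 to 3.38 ± 0.429 CPM, and Cd14, the only 1 that rose, went from 9.47 ± 0.555 to 21.1 ± 0.0449 CPM. The part of such cells in the Cd36 result was not tested.

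Fabp4 (chr3:10204088-10208576, minus strand), the fatty acid binding protein, had the widest relative spread of the genes in normal glucose. It was found at 198, 148 and 159 CPM in normal against 165, 199 and 181 CPM in high glucose. Normal glucose replicate 1 lay just below the highest high glucose culture, and the log2 fold change was 0.11 (SE 0.10, 95% interval −0.13 to 0.34; adjusted p = 0.475, edgeR). Without that library the log2 fold change was 0.22 with an adjusted p of 0.0353 in edgeR. This was the only 1 of 17 alternative analyses in which Fabp4 was called. Over the 17 the log2 fold change ranged from −0.01 to 0.22. It was below 0 under library size scaling and 0.01 without normal glucose replicate 2. Cebpb, like Fabp4, was highest among the controls in normal glucose replicate 1.

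Plin1 (chr7:79720218-79732903, minus strand), the perilipin of the fat cell droplet, was measured at 39.1, 39.6 and 42.1 CPM in normal against 51.6, 52.3 and 52.3 CPM in high glucose. The high glucose values were nearly identical, and the log2 fold change was 0.37 (SE 0.051, 95% interval 0.26 to 0.48; adjusted p = 3.46e-04, edgeR). The other perilipins did not move as a family. Plin4, which is also rich in fat cells, rose from 55.8 ± 2.50 to 78.4 ± 2.62 CPM, whereas Plin2, the perilipin of most other cells, fell from 290 ± 11.2 to 198 ± 2.30 CPM.

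The list for the lipid droplet and lipolysis held 19 genes, and of the 17 that could be tested 6 rose and 3 fell, with a median log2 fold change of 0.01. For this list and the next, the shares over all tested genes were 16.9% higher and 14.5% lower. In the lipid droplet list the number that fell was 7 under library size scaling and 6 with GC content and length trends removed. Among those that rose were 2 enzymes that release stored fat and an activator: hormone-sensitive lipase Lipe (33.1 ± 1.71 to 45.4 ± 1.44 CPM), adipose triglyceride lipase Pnpla2 (42.2 ± 2.04 to 52.6 ± 0.518 CPM) and the activator of the latter, Abhd5 (140.0 ± 1.22 to 191 ± 8.32 CPM). Monoglyceride lipase, Mgll, which completes the breakdown, stood at 14.2 ± 0.717 and 13.1 ± 0.441 CPM and did not pass. Cav1, the caveolin of the plasma membrane, fell from 223 ± 13.7 to 178 ± 6.26 CPM. In the triglyceride synthesis list 5 of 16 tested genes rose and 2 fell (median log2 fold change 0.05), against 4 and 4 under library size scaling. The acyltransferase genes Gpam, of the first step, and Dgat2, of the last, rose, Gpam from 80.3 ± 5.31 to 141 ± 3.07 CPM and Dgat2 from 50.5 ± 2.15 to 75.7 ± 1.66 CPM. The other first-step acyltransferases did not pass, Gpat4 (146 ± 5.28 CPM in normal glucose) having a log2 fold change of 0.04 and Gpat3 (1.16 ± 0.213 CPM) one of −0.02. Those that fell were Agpat5, from 16.9 ± 0.998 to 13.7 ± 0.950 CPM, and Gk, at a log2 fold change of −0.29, which no longer passed without normal glucose replicate 1 or 2 or high glucose replicate 1 or 3 (log2 fold changes −0.32 to −0.23), so that 1 gene of the list was then called lower.

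Adipoq (chr16:23146536-23158028, plus strand) had the largest fold change of the 10 genes. It was present at 19.9, 18.8 and 19.0 CPM in normal against 29.2, 31.1 and 31.7 CPM in high glucose. Every high glucose value exceeded the highest control by more than the range within either group, with a log2 fold change of 0.67 (SE 0.055, 95% interval 0.55 to 0.80; adjusted p = 1.0e-05, edgeR). Per Pparg count there were 0.585, 0.564 and 0.584 Adipoq counts in normal against 0.904, 0.888 and 0.887 in high glucose. The groups of ratios were far apart. Of 7 adipokine receptor genes 3 rose and 4 did not pass, the number that fell being 0 in edgeR, 1 at an unadjusted p under 0.05, 1 in DESeq2 and 2 under library size scaling. The edgeR shares over all tested genes were 16.9% higher and 14.5% lower. Lepr and Insr were among those that rose, with log2 fold changes of 0.70 to 0.84 and 0.27 to 0.54 over the 17 alternative analyses. Among the adiponectin receptors Adipor1 stood at 165 ± 2.04 and 156 ± 1.82 CPM without passing, though it was called lower under library size scaling and with GC and length trends removed, and Adipor2 rose from 119 ± 13.0 to 147 ± 4.72 CPM, a call lost without high glucose replicate 2 or under library size scaling.

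**Figure D3:**
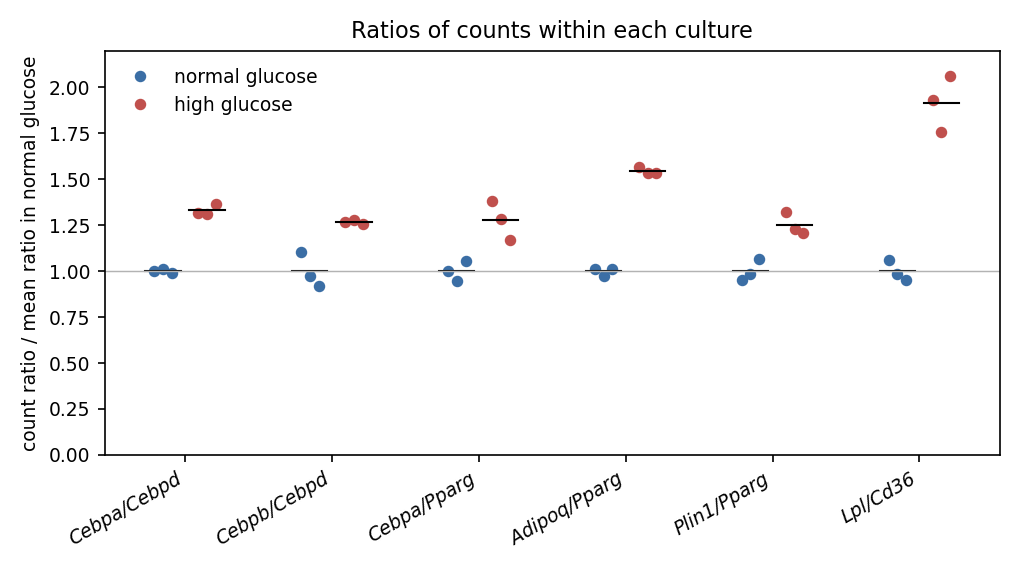
Ratio of the counts of 2 genes within each culture (y axis, divided by the mean ratio in normal glucose), 1 point per culture and a bar at the mean of 3. The groups do not overlap in any of the 6 ratios shown, with the high glucose mean furthest from 1 for Lpl to Cd36. Ratios whose groups overlapped are not shown.

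Ratios within a culture do not depend on scaling between libraries, and 11 were computed, chosen after the values were seen. The groups were apart for 9 of them. Each of the 9 had the smallest p that an exact two-sided permutation test of 3 against 3 can give (p = 0.1, 0.12 after Benjamini-Hochberg adjustment over the 11), so that none could pass 0.05. Each of the 9 also holds a gene called in edgeR, so the separation restates those calls and adds no separate support. The share of other gene pairs with separate groups was not computed. The mean ratio of Cebpa to Cebpd rose from 0.557 ± 0.00589 to 0.741 ± 0.0173, that of Plin1 to Pparg from 1.21 ± 0.0713 to 1.52 ± 0.0702, and that of Adipoq to Plin1 from 0.478 ± 0.0277 to 0.589 ± 0.0209. The 2 ratios that overlapped were Cebpa to Cebpb (exact p = 0.7) and Fabp4 to Pparg (exact p = 0.6).

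Levels were compared between genes per kilobase of the longest coding transcript. In normal glucose the order was Lpl (1024 ± 31.9 CPM per kb), Fabp4 (188 ± 29.4), Cebpb (185 ± 21.1), Cebpd (70.9 ± 3.92), Cebpa (56.3 ± 2.58), Pparg (15.7 ± 0.309), Adipoq (14.9 ± 0.431), Plin1 (14.3 ± 0.566), Cd36 (13.4 ± 0.441) and Zfp423 (1.57 ± 0.0928). Fabp4 and Cebpb overlapped, as did Pparg with Adipoq and Adipoq with Plin1. In high glucose Adipoq (23.7 ± 1.02 CPM per kb) and Plin1 (18.5 ± 0.141) lay above Pparg (16.2 ± 0.851) with no overlap between neighbors, and Cebpa (74.1 ± 2.83) reached Cebpd (70.1 ± 4.25), with which it overlapped, as Cebpb (232 ± 15.6) did with Fabp4 (203 ± 19.0). The lengths matter most for Fabp4, which would stand at 37.6 rather than 188 CPM per kb in normal glucose if all annotated exon bases, retained introns included, were used.

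Other mature fat cell markers rose or did not pass. Of 22 such markers and adipokines 19 could be tested, and 11 rose and 8 did not pass in edgeR, with a median log2 fold change of 0.41 against 0.0062 over all tested genes. Of all tested genes 16.9% were called higher and 14.5% lower. Car3, a carbonic anhydrase abundant in fat, went from 5.83, 6.40 and 6.40 CPM to 18.2, 20.0 and 18.6 CPM (log2 fold change 1.61, SE 0.072). Others that rose were the adrenergic receptor gene Adrb3 (12.1 ± 0.460 to 18.5 ± 0.244 CPM), the complement protease adipsin, Cfd (21.6 ± 1.66 to 30.6 ± 0.439 CPM), the retinol carrier Rbp4 (11.5 ± 0.941 to 16.5 ± 0.349 CPM), the deiodinase Dio2 (6.57 ± 0.614 to 10.7 ± 0.183 CPM) and, at a low level, resistin, Retn (0.561 ± 0.0312 to 1.30 ± 0.120 CPM). Of the 22, 8 were under 1 CPM in every culture, among them leptin, Lep, with counts in only 2 cultures, and the brown fat gene Ucp1, at or below 0.109 CPM. The number that fell was 0 in edgeR, 0 at an unadjusted p under 0.05, 0 in DESeq2 and 1 under library size scaling. That gene was the insulin-regulated glucose transporter Slc2a4, which stood at 2.32 ± 0.229 and 1.98 ± 0.136 CPM and did not pass otherwise.

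**Figure D4:**
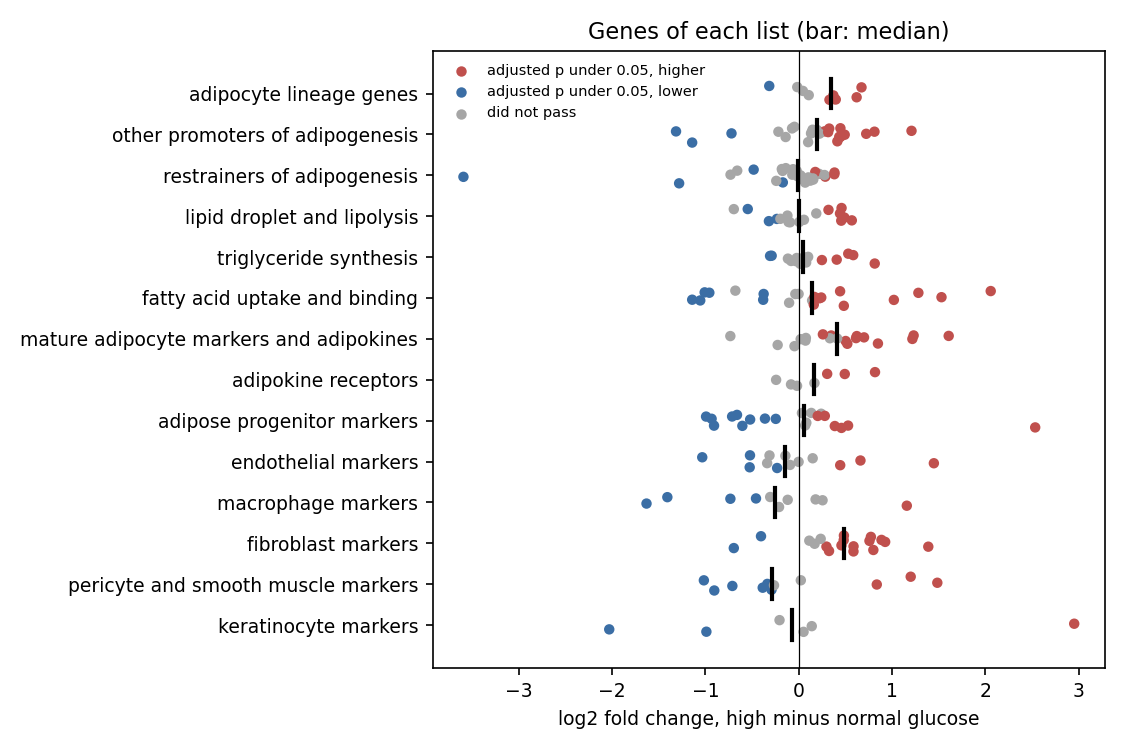
Log2 fold change (x axis, high minus normal glucose) of every tested gene in each list, 1 point per gene, with a bar at the list median. The medians are 0.35 for the adipocyte lineage genes, 0.41 for other mature fat cell markers and 0.48 for fibroblast markers, and −0.01 for restrainers of adipogenesis.

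Regulators of fat cell formation were divided by the direction assigned to them when the lists were made, which was not tested in these cultures. Of 27 tested factors that favor it, outside the 10 genes, 12 rose, 3 fell and 12 did not pass, with a median log2 fold change of 0.20. Stat5a and Nfil3, transcription factors linked to differentiation, rose from 43.2 ± 0.817 to 59.1 ± 1.85 CPM and from 101 ± 1.92 to 142 ± 3.56 CPM. The 3 that fell were the early response factors Egr2 (4.06 ± 0.595 to 1.63 ± 0.135 CPM) and Klf4 (52.0 ± 2.41 to 31.6 ± 0.550 CPM), which act upstream of Cebpb in preadipocytes, and the commitment signal Bmp4 (1.59 ± 0.121 to 0.714 ± 0.166 CPM). Cebpb and these 2 factors differed in direction. Of 27 tested restrainers, 4 rose, 4 fell and 19 did not pass, the number that fell being 9 under library size scaling. By the same test 16.9% of all tested genes were higher and 14.5% lower, and the restrainers lay close to those shares. Hes1, a Notch target, fell from 26.1 ± 2.59 to 10.7 ± 0.354 CPM, and myostatin, Mstn, from 8.06 ± 0.822 to 0.666 ± 0.0112 CPM, while Klf7 rose from 27.2 ± 0.986 to 35.5 ± 1.52 CPM. The preadipocyte factor Dlk1 stood at 38.3 ± 1.85 and 40.1 ± 0.895 CPM without passing.

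Progenitor and fibroblast markers, which belong to the cells from which fat cells form, were read beside the adipocyte lineage genes. Of 20 adipose progenitor markers, 6 rose, 9 fell and 5 did not pass (median log2 fold change 0.05). For this and the other marker lists, the shares over all tested genes were 16.9% higher and 14.5% lower. Pi16, a marker of an early progenitor layer, had the largest change of the progenitor list, from 22.8, 21.4 and 22.7 CPM to 127, 130 and 131 CPM (log2 fold change 2.53, SE 0.054). Cd34 fell from 90.3 ± 0.831 to 45.3 ± 1.22 CPM, and Anxa3 from 102 ± 6.98 to 53.3 ± 1.44 CPM. Of 18 fibroblast markers 13 rose, 2 fell and 3 did not pass, with a median log2 fold change of 0.48, higher than the 0.35 of the 10 genes. Of these, Col3a1 rose from 12421 ± 651 to 32515 ± 1662 CPM, and Thy1 fell from 1878 ± 59.0 to 1419 ± 34.7 CPM. Of the other marker lists, 3 endothelial genes rose and 4 fell among 13 tested, 1 macrophage gene rose and 4 fell among 10, 3 pericyte and smooth muscle genes rose and 6 fell among 11, and 1 keratinocyte gene rose and 2 fell among 6. The keratinocyte counts were not firm, with 3 higher without normal glucose replicate 2, 2 higher without normal glucose replicate 1 or 3 or high glucose replicate 2, and 1 lower without any single library other than normal glucose replicate 2. The part of these movements in the results for the adipocyte lineage genes was not tested.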

How the data were processed

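RNA of 6 cultures was sequenced, and per the labels and methods the authors used Trimmomatic for trimming, HISAT2 for alignment (GRCm38) and StringTie for quantification. The authors deposited raw read counts per gene, with no normalization. Tool versions, annotation release and strand setting are not given in the sources used here.

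Identifiers were matched to symbols for 55227 of 55487 genes, the remaining 260 holding 0.0069% of counts. The test was fitted with edgeR 4.0.16 under R 4.3.3 (genes kept by filterByExpr with minimum count 10 and minimum total 15; TMM; quasi-likelihood test; Benjamini-Hochberg threshold 0.05), with no covariate. Values are TMM-normalized CPM, with means ± SD over 3 cultures. Adjusted p-values cover 19015 genes in the main fit and under library size scaling, and 19258 to 19601 genes without 1 library. Those of the ratios cover 11 ratios. Standard errors and 95% intervals come from the edgeR statistics, and floors of 3 counts cover counting error only, since reads are not independent molecules. The biological coefficient of variation was 8.44%. Replicates differed by more than sampling noise (chi-square per degree of freedom at least 9.03). Gene positions, strands and transcript lengths are from GENCODE for GRCm38, and promoter sequences from RefSeq (GRCm38.p6).

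The members and the gene lists were chosen with earlier results of these data known. From each list, up to 2 genes with the largest change in each direction were selected. Only called genes with mean log2 CPM of at least 1 were considered. Of those selected, no values are given above for Pnpla3, Bmper, Fap, Twist2, Mylk, Cnn1 and Cspg4. Pecam1, Cdh5 and Kdr were named as well, and further genes were picked for their function or role after their values were seen. Alternatives were DESeq2 1.42.0, edgeR's likelihood ratio test, other scalings and filters, halved counts, GC and length correction (mgcv 1.9.3), a replicate block and leaving out each library.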

Additional observations from a re-analysis of the deposited data

How the results depend on the processing

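Of the 10 adipocyte lineage genes, 8 kept their side of the threshold in all 17 alternative analyses. Of these, the 6 that passed kept their direction, while Pparg and Cebpd, which did not pass, each changed sign in 2. Cebpb was called in 13 of 17 (log2 fold change 0.21 to 0.41) and Fabp4 in 1 of 17 (−0.01 to 0.22). With library size scaling 1819 genes were called higher and 4884 lower, and leaving out 1 library gave 1988 to 3149 higher; in the latter fewer samples were fitted. The same-numbered samples of the 2 groups did not deviate together (correlations −0.025, 0.0038 and 0.013, not every sample matching its own number best), so the numbers are not treated as pairs; with a replicate block 2909 genes were called higher and 2418 lower, with 6 and 1 of the 10 genes. Depth did not limit the 10 genes, all with at least 900 counts per library, but markers near the floor of 3 counts could not be compared.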
